A study of Caenorhabditis elegans with 2 samples.

Results

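The genes described here are the 38 protein-coding genes of Caenorhabditis elegans whose symbols mark them as translation initiation or elongation factors, out of 19973 protein-coding genes in the annotation. They were chosen by symbol alone, as those beginning with eif-, eef-, ife-, iff- or iftb- in the annotation of genome build WBcel235 (ce11), and no symbol beginning with iftb- occurred. Chromatin immunoprecipitation and sequencing (ChIP-seq) located a transcription factor carrying a GFP tag in whole first-stage (L1) larvae of both sexes, in 2 biological replicates and no other condition. All animals were of strain OP355, which carries the allele unc-119(tm4063) on chromosome III and the integrated transgene wgIs355 and is supplied by a public strain collection. The labels give no age in hours and no promoter for the transgene, and they conflict over which gene was tagged, with mdl-1 under antibody and source and eGFP-ZK337.2 in the description. MDL-1 is the worm relative of mammalian MAD proteins, which bind E-box sequences together with partners of the MAX family. Whole larvae mix all tissues, so binding in a few cells and weak binding in many cannot be told apart, and the files give no expression values that could check the tissues.

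Translation begins when initiation factors bring a ribosomal subunit, a messenger RNA and the initiator tRNA together at a start codon. The complex eIF2 delivers the initiator tRNA, eIF2B recharges eIF2 with GTP, eIF3 holds the small subunit, and eIF4E binds the cap of the messenger RNA. Elongation factors then take over: eEF1A brings charged tRNAs, eEF1B recharges eEF1A, eEF2 moves the ribosome along, and eIF5A helps ribosomes through stretches where they stall. In mammals, genes for such factors are known targets of Myc, whose partners and antagonists belong to the same protein network as the MAD proteins.

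Each of 3 lists, pooled, replicate 1 and replicate 2, held 30000 regions with a deposited signal, most of them weak. The authors' thresholded list was the top of the pooled list, down to a signal of 49.8. In each replicate list the same number of strongest regions was taken for comparison, called here the top set, which ended at 28.2 in replicate 1 and 28.6 in replicate 2. A region was given to a gene when its summit, the point marked within the region, lay in the gene body or up to 1000 bp upstream. The libraries' depth is unknown, and intervals from counts could not be given. Signal is comparable only within a list, so ranks are given beside it. No test was made, since there is 1 group and the genes were named with results of these data known.

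Of the 38 genes, 3 had a thresholded region: iff-2, which encodes eIF5A, eef-1A.2, which encodes eEF1A, and eif-2Bgamma, which encodes a subunit of eIF2B. That is 7.89% of them, beside 1.03% of all protein-coding genes in the same kind of window. They had 4 thresholded regions between them, because 2 lay upstream of eef-1A.2. With regions left out wherever any other gene, coding or not, had a closer 5' end, 1 of the genes, iff-2, still had one. The share of all protein-coding genes was not counted under that rule. The next gene, eef-1B.1, reached a pooled signal of 36.6, below the last thresholded region.

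The sequences under these summits, and under that of eef-1B.1, are shown because they are the strongest sites of the family. They run 5′ to 3′ on the strand of the gene, on ce11, for up to 50 bp either side of the summit and without bases of the gene itself. Capitals mark CACGCG and CGTCTC on either strand. The windows are chrII:8561368-8561467 (minus strand), chrX:7823158-7823258 and chrX:7823357-7823457 (plus), chrII:6968563-6968663 (minus) and chrIII:7973387-7973476 (minus).
iff-2: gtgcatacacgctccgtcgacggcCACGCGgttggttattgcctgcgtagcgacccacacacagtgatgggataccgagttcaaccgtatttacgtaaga
eef-1A.2, stronger: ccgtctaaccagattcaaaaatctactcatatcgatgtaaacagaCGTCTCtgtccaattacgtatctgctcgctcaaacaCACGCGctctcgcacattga
eef-1A.2, weaker: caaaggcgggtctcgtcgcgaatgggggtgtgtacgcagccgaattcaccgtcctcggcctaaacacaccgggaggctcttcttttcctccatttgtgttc
eif-2Bgamma: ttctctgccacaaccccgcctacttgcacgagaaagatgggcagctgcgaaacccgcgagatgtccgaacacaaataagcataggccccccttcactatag
eef-1B.1: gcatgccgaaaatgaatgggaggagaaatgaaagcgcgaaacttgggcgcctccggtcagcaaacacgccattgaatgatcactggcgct

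The region of iff-2 (WBGene00002065, chromosome II, 8559375 to 8561367, minus strand) was the strongest of the family. Signals there were 165.0 pooled, 79.5 in replicate 1 and 78.7 in replicate 2. It ranked 23, 25 and 27 in these lists, so its place among 30000 regions hardly moved between replicates. The pooled region spanned 8561247 to 8561586, the summit being 50 bp upstream, and both replicate summits lay 8 bp from it. No other gene was closer: the divergent protein-coding gene F54C9.14 began 885 bp away, and the small nucleolar RNA gene F54C9.12, inside iff-2, 645 bp away. The region also fell in the upstream window of F54C9.14, so by best pooled signal both genes tied at place 13 among the 13148 protein-coding genes with a pooled region.

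The eef-1A.2 gene (WBGene00001169, chromosome X, 7823654 to 7825769, plus strand) had a pair of thresholded regions upstream that overlapped by 141 bp. The stronger, at 7823038 to 7823377, had a pooled signal of 91.2 and rank 70, and its summit was 446 bp from the gene. The weaker, at 7823237 to 7823576, had a pooled signal of 55.3 and rank 204, and its summit was 247 bp from the gene. In replicate 1 both were listed, with summits 2 bp and 0 bp from the pooled ones, at signals of 55.4 (rank 52) and 22.05 (rank 1039). Replicate 2 listed a single region here, with a signal of 33.4 (rank 176) and a summit 109 bp from the stronger and 90 bp from the weaker pooled summit. Strong signal upstream of eef-1A.2 was thus present in both replicates, while its division into 2 regions was seen in the pooled list and in replicate 1.

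The only annotated 5' end closer to these summits belonged to R03G5.8, a short unclassified non-coding RNA gene on the other strand, 317 bp and 118 bp away. The weaker summit lay inside it. The next protein-coding 5' end, of R03G5.6, was over 6 kb away, at 6284 bp from the stronger summit. Either the ncRNA gene or eef-1A.2 could own the pair, which these files cannot tell apart.

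The region given to eif-2Bgamma (WBGene00004090, chromosome II, 6965800 to 6967648, minus strand) was the weakest of the 3 best regions and had the most other genes nearby. Its pooled signal was 71.1 (rank 116), and it was 25.6 (rank 417) in replicate 1 and 43.7 (rank 92) in replicate 2, so in replicate 1 it fell outside the top set. It spanned 6968443 to 6968782, and the summit was 965 bp upstream, near the limit of the window. That summit lay in an intron of the neighbouring gene C15F1.5, which ends 251 bp upstream of eif-2Bgamma on the same strand. It also lay 55 bp from the 5' end of sup-39, annotated as a small nuclear RNA gene, and 62 bp from that of mir-1831. Of its 36-base words, 87.5% occurred once in the genome, against 100% for the other thresholded regions of the family. Among protein-coding genes eif-2Bgamma still had the closest 5' end, with that of C15F1.5 2002 bp away. The RNA genes were closer than either.

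**Figure D1:**
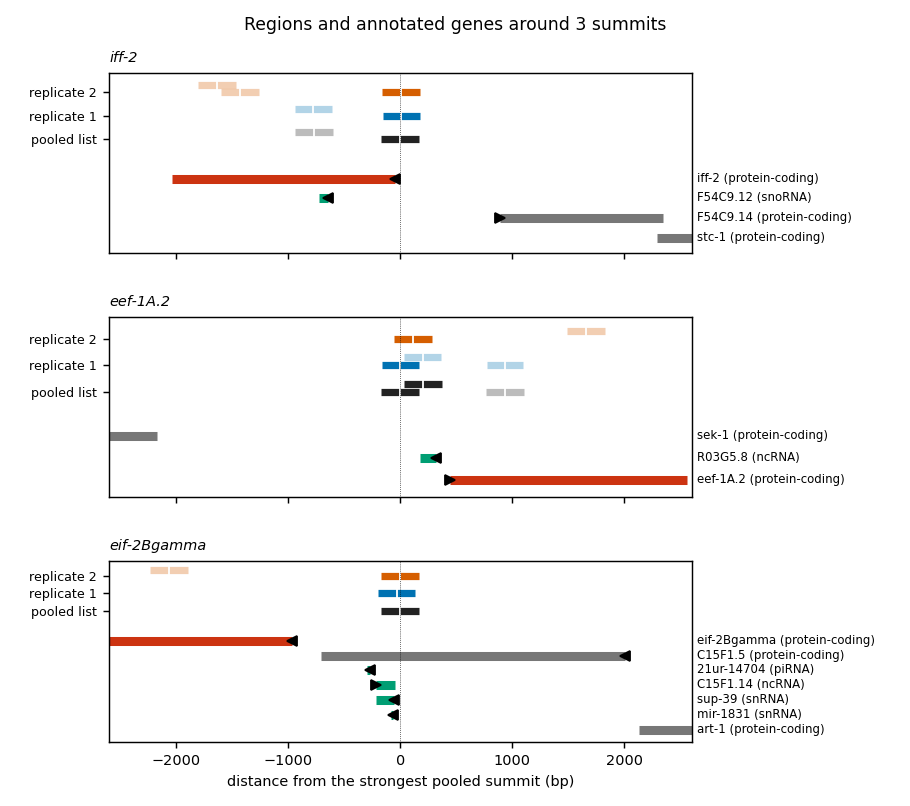
Regions of each list (top bars, white tick at the summit, pale where the rank was over 1000) and annotated genes (arrowhead at the 5' end, the translation factor gene in red, other protein-coding genes in grey, non-coding genes in green) by distance in bp from the strongest pooled summit. The iff-2 summits lie just outside the gene, those of eef-1A.2 beside R03G5.8, and those of eif-2Bgamma inside C15F1.5 and next to sup-39.

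Paralogs of iff-2 and eef-1A.2 had only weak regions or none. The other eIF5A gene, iff-1, which is needed in the germline, had no region in the pooled list or replicate 1, and 1 region in replicate 2 with a signal of 11.7 (rank 12404). The other eEF1A gene, eef-1A.1, had a best pooled signal of 26.02 (rank 5329), at a summit in a coding exon 121 bp past the 5' end, where replicate 1 had 16.1 (rank 6281) and replicate 2 no match. Its second pooled region (signal 22.6, rank 10111) lay 412 bp upstream, but was 129 bp from rfc-4 and 39 bp from cel-mir-5549. The best regions of eef-1A.1 in the replicates had signals of 16.7 (rank 5215) and 12.3 (rank 10343), at places more than 1 kb apart within the window. Coding sequences were identical at 94% of 1389 aligned bases between eef-1A.1 and eef-1A.2, and at 78.7% of 483 between iff-1 and iff-2. Words of 36 bases occurring once in the genome made up 94.2% of the eef-1A.1 gene and 95.4% of eef-1A.2. In each pooled region of eef-1A.1, eef-1A.2 and iff-2 such words made up 100%. How the authors treated reads that match several places was not stated, and its part in the difference between paralogs was not tested.

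Among the eEF1B genes, eef-1B.1 had a pooled signal of 36.6 (rank 783), and its summit was 40 bp upstream. In replicate 2 the signal was 25.6 (rank 367), with the summit at the 5' end itself, while replicate 1 listed no region in its window. The divergent gene aco-2, a mitochondrial aconitase, began 291 bp from the pooled summit, and the ncRNA gene F54H12.9 99 bp from it. Its relative eef-1B.2 had no pooled region and 1 in replicate 1 only, with a signal of 10.9 (rank 24709). The gamma subunit gene eef-1G had no pooled region either, with 10.2 (rank 28808) in replicate 1 and 11.1 (rank 14434) in replicate 2. The eEF2 gene, eef-2, had a pooled summit 25 bp upstream with a signal of 21.9 (rank 11351). It was 15.3 (rank 4137) in replicate 2, and replicate 1 had only regions further inside the gene, the best at 12.7 (rank 15784).

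All 3 eIF2 genes had pooled regions, beside 65.8% of all protein-coding genes. The gene of the GTP-binding subunit, eif-2gamma, reached 33.4 (rank 1270) at a summit 68 bp inside the gene, with 21.9 (rank 1074) in replicate 1 and 15.01 (rank 4577) in replicate 2, the latter at another summit. The eif-2beta gene had a pair of pooled regions, at 30.2 (rank 2338) 206 bp inside the gene and 28.1 (rank 3492) 489 bp upstream. The upstream one matched the best region of replicate 1 (27.1, rank 319), and the best of replicate 2 (19.3, rank 1265) lay 63 bp inside the gene, so the best sites of the replicates lay at different places. At the pooled summit inside the gene replicate 1 had 12.1 (rank 18421). The ncRNA gene K04G2.15 was closer to the upstream one, at 245 bp. The eif-2alpha gene, whose protein is the one phosphorylated under stress, had 23.1 (rank 9183) in an intron, 1877 bp from its outermost 5' end but 149 bp from an annotated transcript start. Replicate 1 gave 15.7 (rank 6949) there, and replicate 2 listed no region in its window.

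A pooled region was found at 65.8% of all protein-coding genes. Besides eif-2Bgamma, 3 of the other eIF2B genes had pooled regions, all weak. They were eif-2Bepsilon at 24.5 (rank 7072), eif-2Balpha at 23.3 (rank 8928) and eif-2Bdelta at 21.8 (rank 11581), whose summit was 3100 bp inside the gene and closer to C50F4.8. In eif-2Bbeta no pooled region was found, and replicate 2 alone had 1, with a signal of 9.97 (rank 19797).

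Of the 11 eIF3 genes chosen by symbol, 5 had a pooled region, beside 65.8% of all protein-coding genes. Best signals of the 5 ran from 17.6 to 26.9. The highest was eif-3.G (26.9, rank 4494), 445 bp upstream, where replicate 2 had 14.4 (rank 5500) and replicate 1 no region. The best region of replicate 2 was another, at 15.6 (rank 3808). The next, eif-3.B (26.3, rank 5080), had its summit 203 bp upstream and was listed within 18 bp of it in both replicates, at 17.0 (rank 4773) and 11.8 (rank 12131). In eif-3.F the pooled signal was 24.6 (rank 6980), in a coding exon closer to the 5' end of scp-1, with 16.6 (rank 5348) in replicate 1 and 8.55 (rank 28346) at another summit in replicate 2. The others were eif-3.H and eif-3.C, the latter closer to T23D8.3. In replicate 1, 6 of the 11 had a region, beside 64.1% of all protein-coding genes. In replicate 2 it was 10 of the 11, beside 66.9%. The eif-3.D gene had none in any of the 3 lists, alone among the 38 (2.63%, beside 15.9% of all protein-coding genes).

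The cap-binding eIF4E genes had pooled regions in 4 of 5 cases, beside 65.8% of all protein-coding genes. Best signals of the 4 ran from 22.7 to 26.9. The strongest was ife-2 (26.9, rank 4526), whose summit was 18 bp upstream. It was 22.8 (rank 561) in replicate 2, and the nearest region of replicate 1 was at 11.3 (rank 22263). The pooled summit of ife-3 (26.2, rank 5156) was 900 bp upstream and 11 bp from the 5' end of B0348.10, in which it lay. Near that place replicate 1 had 18.2 (rank 3319) and replicate 2 had 16.2 (rank 3178). A region inside ife-3 itself had 18.7 (rank 19827) in the pooled list and 20.3 (rank 978) in replicate 2, and none matched it in replicate 1. The region of ife-1 (25.5, rank 5896) lay in its 5' UTR, which overlaps dro-1, with 15.6 (rank 7222) in replicate 1 and 8.61 (rank 27885) in replicate 2. That of ife-4 (22.7, rank 9967) lay in an intron, and ife-5, whose coding sequence was identical to that of ife-1 at 86.3% of 600 aligned bases, had no pooled region.

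Among the remaining factors, eif-1.A, which with eIF1 helps find the start codon, had 30.7 (rank 2089) in a coding exon 213 bp from the 5' end. This was 24.5 (rank 416) in replicate 2 with no region in replicate 1. In eif-1 the pooled value was 17.0 (rank 25727), in the 3' UTR. The eif-2D gene, for a factor known in mammals to deliver initiator tRNA without GTP, had 30.4 (rank 2233) at 86 bp inside the gene. Both replicates had a summit within 11 bp of it, at signals of 13.7 (rank 12102) and 13.3 (rank 7736), well below the place of the pooled region. The genes eif-6, whose product keeps ribosomal subunits apart, and eif-2A had 23.6 (rank 8437) and 21.5 (rank 12265). For eif-6 replicate 2 alone listed the region, at 13.1 (rank 8201), and for eif-2A the replicates had 10.4 (rank 27396) and 9.70 (rank 21252) nearby. In eif-4A3, a helicase of the exon junction complex, only replicate 1 had a region, at 10.1 (rank 29658).

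**Figure D2:**
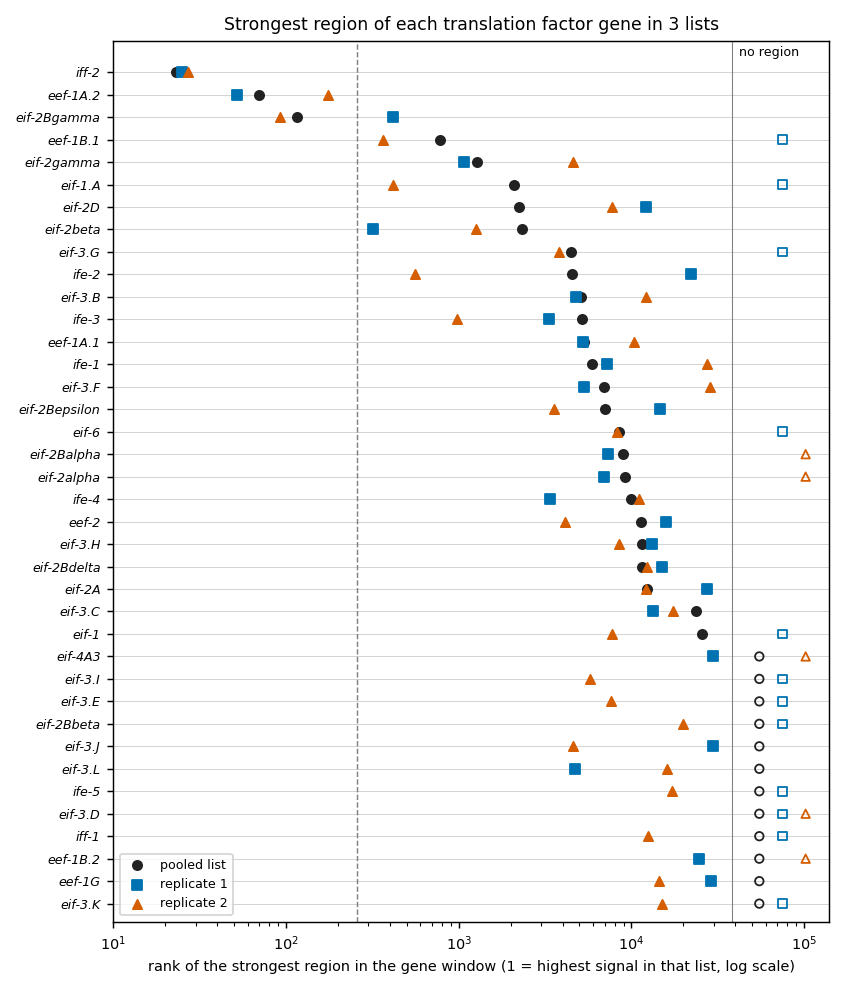
Rank of the strongest region in each gene window, on a log scale, in the pooled list (circles), replicate 1 (squares) and replicate 2 (triangles), with open symbols at the right for no region and a dashed line at the last rank of the thresholded list. The 3 symbols of iff-2 nearly coincide at ranks 23 to 27. Among genes below eif-2Bgamma, some replicate ranks are far apart, as for ife-2 (22263 and 561). Others are close on this scale, as for eif-2Bdelta (15068 and 12329). Replicate 1 alone lists 4 of these genes and replicate 2 alone 11.

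Outside the 3 genes with a thresholded region, 23 had a pooled region, with best signals from 17.0 to 36.6 and a median of 24.6. Of all 38 genes, 26 (68.4%) had a pooled region, near the 65.8% of all protein-coding genes. One of the 1000 strongest pooled regions was found at 4 genes (10.5%, beside 3.84%), a further 4 had a best rank between 1000 and 2500, 12 between 2500 and 10000, and 6 a lower one. The median best signal of genes with a region was 25.7, beside 22.4 over all protein-coding genes. It was 15.6 beside 14.3 in replicate 1, and 13.3 beside 12.4 in replicate 2. Median window length was 3152 bp over all 38 genes and 3027 bp over all protein-coding genes. Windows of the genes with a region, and the longest windows, were not compared. Pooled regions per gene averaged 1 beside 1.29.

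**Figure D3:**
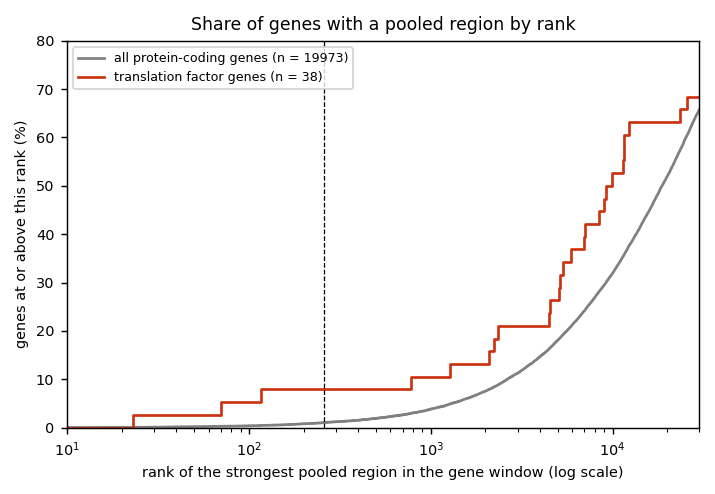
Share of genes (%) whose strongest pooled region has at least a given rank (log scale), for the 38 translation factor genes (red) and all 19973 protein-coding genes (grey), with a dashed line at the last rank of the thresholded list. The red line reaches 7.89% at the dashed line and the grey one 1.03%, and they end at 68.4% and 65.8%.

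The replicates differed in how many of these genes they listed. Replicate 1 had a region at 26 genes (68.4%, beside 64.1% of all protein-coding genes), and replicate 2 at 33 (86.8%, beside 66.9%). Both had one at 22 genes, replicate 1 alone at 4 and replicate 2 alone at 11. Shares over all protein-coding genes were not counted for this split or for the next count. Of the 12 genes with no pooled region, 11 had a region in at least 1 replicate list, the highest being eif-3.L in replicate 1 (17.0, rank 4736) and eif-3.J in replicate 2 (rank 4591). In the top set, replicate 1 had 2 of these genes (5.26%, beside 0.986%), and replicate 2 had 3 (7.89%, beside 0.956%). The genes found in both were iff-2 and eef-1A.2 (5.26%, beside 0.466%). Among the 1000 strongest, replicate 1 had 4 (10.5%, beside 3.75%), replicate 2 had 7 (18.4%, beside 4%), and 3 were shared (7.89%, beside 1.16%), namely these and eif-2Bgamma.

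Of the 26 genes with a pooled region, 19 had a match within 200 bp of the best pooled summit in replicate 1 (73.1%, beside 65.5%). In replicate 2 there were 18 (69.2%, beside 61.5%), and in both 11 (42.3%, beside 33.9%). The shares set beside are those over all protein-coding genes with a pooled region. Over the 22 genes with a region in both replicates, the best signals had a Spearman rho of 0.391, and over the 19 without a thresholded region it was 0.0632. These rho values are correlations across genes of the same libraries, given as a description.

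By position, 10 of the 26 best pooled summits lay upstream of the gene, 7 in coding exons, 7 in introns, 1 in a 5' UTR and 1 in a 3' UTR. Within a promoter window reaching 1000 bp upstream and 500 bp into the gene lay 19 (73.1%), beside 49.1% of the best summits of all protein-coding genes. Upstream of the gene the shares were closer, at 38.5% and 33.7%. Gene lengths among genes with a region were not compared for these shares. All 4 thresholded regions lay upstream. In all, 38 pooled regions fell in the 38 windows, and at 14 of them another gene had a closer 5' end, leaving aside piRNA genes. For the best summit of each gene this was so at 7 of 26. At 5 it was a protein-coding gene (19.2%, beside 23.3% over all genes): ife-3, eif-3.F, eif-3.C, eif-2Bdelta and eif-1. At the other 2, eef-1A.2 and eif-2Bgamma, it was a non-coding gene.

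**Figure D4:**
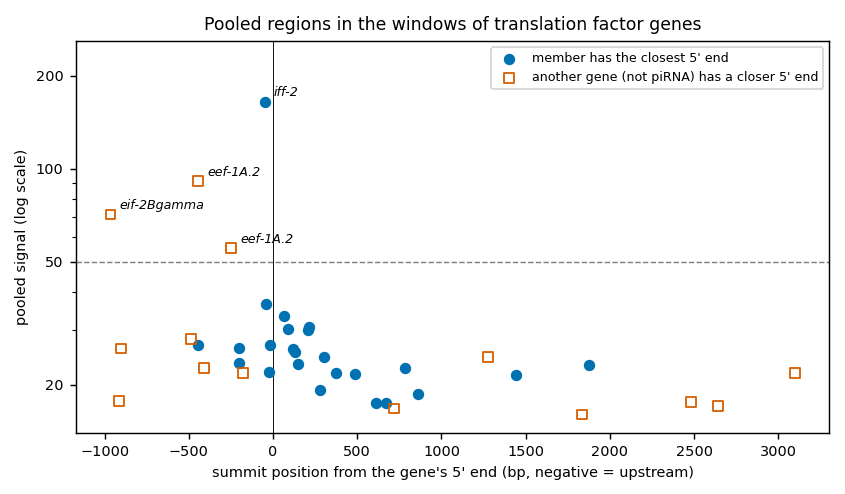
Pooled signal (log scale) of the 38 pooled regions against the position of their summit from the 5' end of the gene in bp, with filled points where the translation factor gene has the closest 5' end and open squares where another gene (not piRNA) is closer. The dashed line marks the lowest signal of the thresholded list, 49.8, and of the 4 regions above it iff-2 alone is a filled point.

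A same-strand protein-coding gene ended within 500 bp upstream of 7 of the 38 genes, an arrangement that in worms is often an operon transcribed from a promoter further upstream. Of these 7, which include eif-2Bgamma, 5 had a pooled region in their window, and of the other 31 genes 21 had one. Over all protein-coding genes 65.8% had one, and how many of them have such a neighbour was not counted. The operons themselves are not annotated in the files used.

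Short sequences within 50 bp of the best pooled summits were counted on both strands. The E-box CACGTG stood at 0 of the 26, beside 2.49% of all pooled regions and 25.1% of the thresholded ones. Over the whole region it was also found at 0 of the 26. Among the 3 thresholded genes the related CACGCG was at iff-2 and at the stronger summit of eef-1A.2, and at no other of the 26, beside 1.44% of all pooled and 12.7% of thresholded regions. The sequence CGTCTC stood at eef-1A.2 and eif-2A, beside 3.44% and 25.9%, and CATGTG at eif-3.G, beside 3.50% and 9.65%. GAGAGAG stood at 0 of 26, beside 2.01% and 17.4%, and TGATAA at 0 of 26, beside 9.17% and 5.02%. Over the whole region, GAGAGAG was found at 2 genes and TGATAA at 5. Shares of all regions were counted within 50 bp of the summit only, so whole-region counts have no share beside them. The CGTCTC and CACGCG of the eef-1A.2 window do not overlap. GC content around the best summits had a median of 41.1%, beside 35.6% over all pooled regions and 49.5% over the thresholded ones. A match of letters is a description only.

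Other genes of translation were counted in the same way, from 5 lists of symbols, of which 72 of 83 were found. Of these, 57 (79.2%) had a pooled region, beside 65.8% of all protein-coding genes, and 2 (2.78%) a thresholded one, beside 1.03%. Their median best signal was 22.7, beside 22.4. Window lengths of these 72 genes were not compared with those of all protein-coding genes, and a longer window can hold more regions. Of 32 aminoacyl-tRNA synthetase genes, which charge tRNAs, 24 had a pooled region and none a thresholded one. The highest was kars-1, for lysine, with a pooled signal of 41.2 (rank 464), 465 bp upstream, and with 26.04 (rank 385) in replicate 1 and 19.6 (rank 1153) in replicate 2.

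Of 11 genes for cap-binding and poly(A) partners, 9 had a pooled region and 1, ifet-1, a thresholded one. Its product binds eIF4E and represses translation. The signal was 71.5 (rank 114), with 28.7 (rank 228) and 41.2 (rank 111) in replicates 1 and 2, but the summit, at -527 bp from its 5' end, was closer to rps-1, at 241 bp. The eIF4A gene inf-1 had no region in any list, and the eIF4G gene ifg-1 reached 18.1 (rank 21975). Of 16 regulators of translation, 14 had a pooled region and 1 a thresholded one. This was mnk-1, the worm relative of the kinases that phosphorylate eIF4E in mammals, with 120.2 (rank 40), and with 41.6 (rank 85) and 76.1 (rank 31) in the replicates. Its summit lay in an intron, 6018 bp from the 5' end. Over all protein-coding genes, 65.8% had a pooled region and 1.03% a thresholded one. Of the 8 genes of termination and recycling 6 had a pooled region, and of the 5 mitochondrial factors 4 did. Neither of these lists had a thresholded one. Their highest were abce-1 at 24.7 (rank 6774), in an intron, and tufm-2 at 28.8 (rank 3125), at a summit closer to exoc-7.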

How the data were processed

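The authors' deposited files are lists of regions from ChIP-seq of 2 biological replicates, each with 1 technical replicate. Per the readme texts deposited with them, regions came from alignments and a control, the pooled list from both replicates, and the thresholded list from the pooled and both replicate lists. The deposited signal of a region is used as given. Its scaling, the aligner, the peak caller, the threshold and the depth, any of which could change the ranks of weak regions, were not given in the sources used here. Lists in ce10 were not used here, since coordinates are not converted between builds.

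Gene positions came from Ensembl release 115 for WBcel235, and sequences from the RefSeq copy of that assembly. Coordinates are 1-based. Regions were ranked by signal within each list, given to genes by summit, and matched between lists at a summit distance of up to 200 bp. The gene's 5' end is its outermost annotated one. Antisense and overlapping genes cannot be separated, since regions have no strand. Words of 36 bases, a length chosen here, were counted on both strands of the 6 chromosomes. Python 3.11.15, pandas 2.3.3 and Biopython 1.88 were used, and assignment was checked on planted summits. The genes, lists, sequences and rules were chosen with earlier results of these data known. All 38 genes could be named, with full values for those thresholded, the 15 with the highest best signal and the highest of each factor. Alternatives changed the window, overlap, ownership, threshold, match distance and replicates.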

Additional observations from a re-analysis of the deposited data

How the results depend on the processing

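The number of translation factor genes with a thresholded region, 3, was 2 to 4 over 10 alternatives, all of which counted iff-2 and eef-1A.2. One of these gave a region to the closest protein-coding 5' end and left non-coding genes aside. An alternative chosen after seeing the data left out regions with a closer 5' end of any other gene, piRNA genes aside, and gave 1, iff-2. The eif-2Bgamma gene was lost with 500 bp upstream and without replicate 2, where its region ranked 417, and eef-1B.1 was gained with the 1000 strongest regions. The number with any pooled region, 26, was 19 to 29 with other windows, overlap or ownership. With a replicate left out it was counted in the other replicate's list, at 26 in replicate 1 and 33 in replicate 2. Shares of all protein-coding genes were not counted for the alternatives of window, overlap or ownership. Their median best signal, 25.7, was 24.6 to 26.9 with other windows or ownership, and 13.3 to 15.6 with a replicate left out, where it is on that list's own scale. The 11 best summits matched in both replicates became 5 with summits at most 50 bp apart and 13 by overlap, the former by the stricter distance itself. Ranks in each replicate are given for the genes reported in full, in some cases only for the region near the pooled summit. For the other genes they are given in part or not at all. CGTCTC was found at 7 genes over whole regions in place of 2, with no share of all regions counted over that length. No paired analysis was possible because all samples belong to the same group. Unknown depth limits the ranks of weak regions.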
